A study of Caenorhabditis elegans with 23 samples.

Results

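FX15992 is a Caenorhabditis elegans strain that carries the sid-1 deletion allele tm2700 together with tmIs1005, an integrated transgene that supplies wild-type sid-1, and its polyA+ RNA was compared with that of the wild-type strain N2. The comparison used 4 of the 23 libraries of the series, 2 of FX15992 and 2 of N2, chosen by strain and by belonging to the set of previously generated alleles. It shows which transcripts still differed from wild type, or came to differ, in animals with sid-1 supplied from the transgene. The 4 other libraries of that set, 2 of FX02700, which has sid-1(tm2700) and no transgene, and 2 of HC196, which has the nonsense allele sid-1(qt9), were used to place the levels of genes and in the scaling and principal component analysis. FX02700 was also compared with N2 and with FX15992. All 8 came from mixed-stage whole animals that the labels describe as grown in liquid culture, whereas the methods of the study describe washing animals from plates, and this difference was not settled. RNA was extracted with TRIzol, and TruSeq libraries were sequenced as single reads. No age, and no copy number or insertion site of the transgene, is given in the sources used here, and tmIs1005 is 1 integrated array in 1 strain.

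SID-1 is a membrane protein that lets double-stranded RNA enter cells, so that silencing started in one tissue can act in others and in progeny. Animals without it still silence genes within cells that hold the RNA but do not spread the effect. A transgene that restores the protein is commonly used to ask whether a change seen in a mutant follows the mutated gene, but the rescued strain also brings its own genetic background and every other gene on the array. According to the strain list of the study, tmIs1005 holds a second gene besides sid-1, a short form of vps-45, which encodes a Sec1/Munc18-type protein of endosomal membrane fusion.

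Estimated counts summed to 22147631 and 25011726 in FX15992 and to 25981558 and 22732223 in N2. All 8 libraries of the set lay between 22147631 and 26396892. Each of the 8 was nearest to its own replicate in a principal component analysis of 500 genes, and along the second component, with 19.8% of the variance, FX15992 at 15.65 and 13.13 stood opposite N2 at -14.64 and -13.32, with FX02700 at -0.84 and -3.95. Markers of every tissue checked (intestine, muscle, neurons, hypodermis, germline) were detected, as the label of whole animals requires. With 2 libraries against 2 the smallest two-sided exact permutation p is 0.333, so single genes were judged by edgeR's quasi-likelihood test over all genes, with Benjamini-Hochberg adjustment and a threshold of 0.05. Levels are in CPM, the count of a gene divided by the TMM-scaled size of its library over the 8 libraries of the set, and a gene is called higher or lower when its adjusted p is under that threshold.

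Both genes of the transgene were higher in FX15992. The level of sid-1 (WBGene00004795, chromosome V, 5119970 to 5126916, WBcel235) was 31.2 and 32.5 CPM in N2, 52.0 and 44.0 CPM in FX15992, 21.4 and 23.6 CPM in FX02700, and 18.9 and 14.7 CPM in HC196. Both FX15992 libraries were above both N2 libraries, and all 4 libraries of the mutants without a transgene were below N2. The fold change of FX15992 over N2 was 1.504 (log2 0.59, SE 0.12, adjusted p = 0.0022), and over FX02700 it was 1.1 on the log2 scale (SE 0.12, adjusted p = 1.24e-07). Without N2 replicate 1 the adjusted p of FX15992 against N2 was 0.0501, with a log2 fold change of 0.57. Transcripts of sid-1 in FX02700 were 0.50 lower than in N2 on the log2 scale (adjusted p = 0.0433), and because reads were summed over the whole transcript these values do not show the deleted segment.

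The gap in vps-45 (WBGene00016643, chromosome X, 970583 to 974848) was far wider. Its level was 18.2 and 18.9 CPM in N2 and 309 and 291 CPM in FX15992. FX02700, at 20.1 and 20.9 CPM, and HC196, at 20.2 and 18.7 CPM, lay next to N2, so that the 2 FX15992 libraries alone stood apart. The fold change over N2 was 16.1 (log2 4.01, SE 0.13, adjusted p = 2.96e-22), and the call held in each of the 12 other fits made, including the 4 that left out 1 library. On a per-length scale, sid-1 and vps-45 were alike in N2, at 6.11 and 6.24 TPM (transcripts scaled for length and library) for sid-1 and 5.36 and 5.46 TPM for vps-45. In FX15992 they were not, with 10.1 and 8.25 TPM for sid-1 and 89.8 and 82.0 TPM for vps-45. Reads were summed over whole transcripts, so endogenous and transgenic copies cannot be told apart in these counts.

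**Figure D1:**
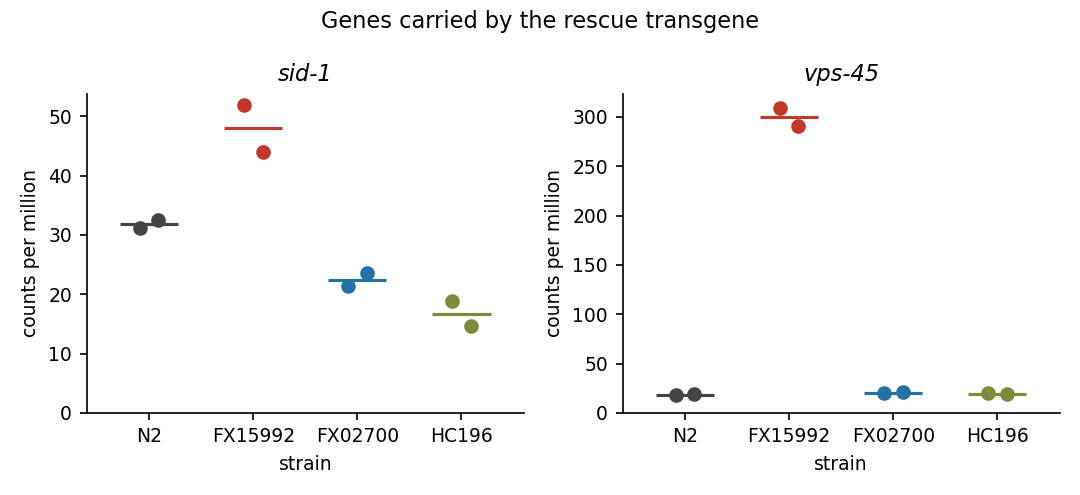
Levels in CPM of sid-1 (left) and vps-45 (right) in each library of N2, FX15992, FX02700 and HC196, with 1 point per library and a bar at the mean of 2. In sid-1 the FX15992 points, 52.0 and 44.0, are the highest of the 8, and in vps-45 the FX15992 points, 309 and 291, stand apart from all others, which lie near 20.

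The genes beside sid-1 and vps-45 held no calls, where 3.54% of all genes tested were called. None of the 10 genes beside sid-1 on chromosome V, 5 on each side, was called in edgeR, DESeq2 or limma voom, and 1 of them had an unadjusted p under 0.05. The same counts held for the 10 genes beside vps-45. At the share over all genes, 10 genes would hold few calls, so these counts do not show that the neighbours were unchanged. Where the transgene lies is not given, so its own neighbours could not be examined. Next to sid-1, F14F9.5 had 4.59 and 5.70 CPM in N2 and 6.08 and 5.94 CPM in FX15992 (log2 fold change 0.23, SE 0.19, adjusted p = 0.652). Among 7 genes of the endosomal fusion machinery, which include the syntaxins syx-7 and syx-16, the GTPase rab-5 and its partner rabs-5, and the Sec1/Munc18 proteins vps-33.1 and vps-33.2, vps-45 was the only member called.

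Over all genes, FX15992 differed from N2 at 648 of 18297 genes tested (3.54%), of which 230 were higher (1.26%) and 418 lower (2.28%). The median size of the log2 fold change was 0.79 for the higher genes and -0.71 for the lower genes, and 195 genes changed at least 2-fold. The count rested on single libraries: it was 315 without N2 replicate 1 and 1183 without FX15992 replicate 1, and 167 genes were called in the full comparison and in all 4 fits with 1 library left out. For scale, FX02700 differed from N2 at 204 of 18311 genes (1.11%), with 0.513% higher and 0.601% lower. FX15992 differed from FX02700 at 379 of 18293 genes (2.07%), with 0.694% higher and 1.38% lower. These comparisons share libraries with the first, so for genes picked by their FX15992 values a difference from FX02700 is no independent support. The order of the counts was not stable. Without N2 replicate 1 FX02700 against N2 had 535 calls where FX15992 against N2 had 315, and without N2 replicate 2 the counts were 706 and 531. For FX15992 against FX02700 the count ran from 110 without FX02700 replicate 2 to 1532 without FX15992 replicate 1. Pseudogenes made up 10.9% of the higher genes, 1.67% of the lower genes and 5.12% of all genes tested. By chromosome, the share called ran from 2.54% on III to 4.31% on V among the nuclear chromosomes. On X, 0.715% of genes were higher and 3.02% lower.

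**Figure D2:**
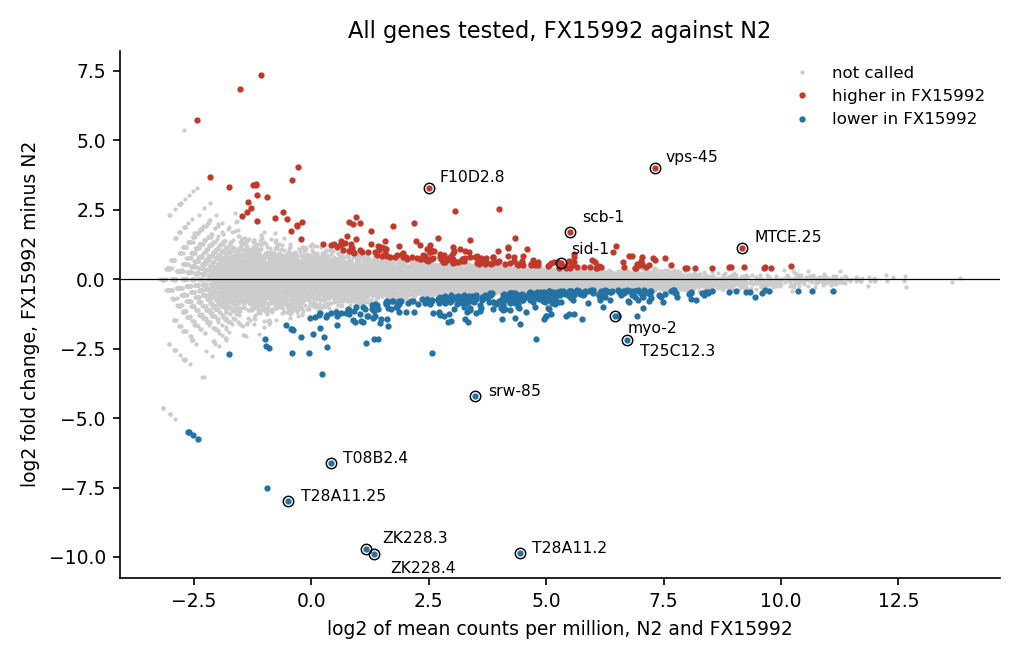
Log2 fold change of FX15992 over N2 (vertical) against log2 of the mean CPM of N2 and FX15992 (horizontal) for the 18297 genes tested, red where higher, blue where lower and grey where not called. The fold changes of genes with no or almost no reads in 1 strain, at the bottom and at the far left, depend on the small count added in the fit and are not sizes of a change.

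Beside sid-1, no gene of the RNA silencing lists was called, where 3.54% of all genes tested were. Of 6 genes of double-stranded RNA import and transport only sid-1 was called: the intestinal importer sid-2, the kinase sid-3, the endosomal protein sid-5, the SID-1 relative chup-1 and rsd-3 had log2 fold changes between -0.09 and 0.22. Of 20 Argonaute genes, which bind small RNAs, none was called in edgeR, DESeq2 or limma voom, although 6 had an unadjusted p under 0.05 and 7 were lower without FX15992 replicate 1. Of 39 genes of dsRNA processing and amplification, such as Dicer and RNA-dependent RNA polymerases, none was called by any of these tools and none had an unadjusted p under 0.05. Over all genes, 2704 of 18297 had an unadjusted p under 0.05. Lists of this size would hold few calls at the share over all genes, so these counts do not show that the genes were unchanged. Of the 20 Argonautes, 16 had a negative log2 fold change, with a median of -0.20. The absence of Argonaute calls holds for the main edgeR fit. With no filter on low counts, or with replicate number as a block, edgeR called 1 of them lower.

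The sid-1-dependent genes described by the study were examined by name. The level of Y102A5C.36, listed as sdg-2, was 1.53 and 1.20 CPM in N2 and 4.34 and 6.01 CPM in FX15992, a fold change of 3.77 (log2 1.92, SE 0.25, adjusted p = 2.26e-06). FX02700 had 3.92 and 5.04 CPM and HC196 had 6.16 and 5.21 CPM, so that FX15992 lay with the mutants, and it did not differ detectably from FX02700 (log2 0.23, SE 0.19, adjusted p = 0.637). The other 2 wild-type sets of the series, grown on plates and sequenced as paired ends, had means of 4.53 and 8.11 CPM without scaling. F07B7.2, a locus of sdg-1, had 1.33 and 1.16 CPM in N2 and 1.19 and 1.46 CPM in FX15992 (log2 0.09, SE 0.31, adjusted p = 0.949). The study gives sdg-1 as a pair of identical loci, W09B7.2 and F07B7.2. Only the entry F07B7.2 was analysed here, and its reads cannot be divided between the loci. cls-3, a CLASP-type microtubule-binding protein, had 30.2 and 35.4 CPM in N2 and 24.1 and 25.1 CPM in FX15992, which did not overlap, as was the case for 44.4% of all genes tested, and missed the threshold (log2 -0.41, SE 0.13, adjusted p = 0.0612).

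Y102A5C.36 was 1 of 4 neighbouring genes that were all higher, at 16924985 to 16930063 on chromosome V. The pseudogene Y102A5C.6 had 4.43 and 4.99 CPM in N2 against 28.9 and 25.1 CPM in FX15992 (log2 2.52, SE 0.16, adjusted p = 1.4e-13), and the pseudogene Y102A5C.5 had 2.94 and 2.14 CPM against 16.8 and 11.5 CPM (log2 2.46, SE 0.21, adjusted p = 2.04e-10). In both pseudogenes FX02700 and HC196 were near the FX15992 level or above it, between 16.7 and 38.4 CPM, and the plate-grown wild types were too, with unscaled means between 19.8 and 31.8 CPM. The N2 libraries of this set were therefore the low ones. The fourth gene, the pseudogene Y102A5C.35, had 2 reads in N2 and 22 in FX15992, a ratio of 11.4 with an exact 95% interval of 2.79 to 99.7 for counting error only, and its call was lost without N2 replicate 2 (adjusted p = 0.154).

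The widest losses were genes that had reads in N2 and none or almost none in FX15992. T28A11.2 (WBGene00020869, chromosome V, 3280379 to 3281167) had 39.5 and 47.1 CPM in N2, and 0.0915 and 0 CPM in FX15992. FX02700, at 45.7 and 40.4 CPM, and HC196, at 33.21 and 31.2 CPM, were near N2, so that only FX15992 lacked it. Counted as reads, this was 2066 in N2 against 2 in FX15992, a ratio of 1000 with an exact 95% interval of 277 to 8263 for counting error only. The next gene along the chromosome, T28A11.25 (3281823 to 3282702), had 1.14 and 1.51 CPM in N2 and no read in FX15992, at least 20.3-fold lower against a floor of 3 reads over both libraries. It had 1.18 to 1.55 CPM in FX02700 and 1.04 to 1.30 CPM in HC196. Of genes nearby, T28A11.18 (log2 -1.78, adjusted p = 0.0138) and T28A11.19 (log2 -0.66, adjusted p = 0.0247) were also lower. Others were not called, among them fbxa-64 with 8.63 and 10.4 CPM in N2 and 8.003 and 9.58 CPM in FX15992, and F35F10.5 with 3.10 and 3.47 CPM in N2 and 4.30 and 4.29 CPM in FX15992.

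T08B2.4 (chromosome I, 6224878 to 6226099) followed the same pattern, with 2.63 and 2.45 CPM in N2, 0.0457 and 0 CPM in FX15992, and 2.14 to 3.22 CPM in FX02700 and HC196. Its reads numbered 122 in N2 and 1 in FX15992, a ratio of 118 with an exact 95% interval of 20.8 to 4703. Of its neighbours, T08B2.11 was called lower (log2 -0.69, adjusted p = 0.0248) and T08B2.12 called higher (log2 0.52, adjusted p = 0.0372), while rps-17, a small ribosomal subunit protein, was not called (log2 0.09, adjusted p = 0.792). T28A11.2, T28A11.25 and T08B2.4 were also lower in FX15992 than in FX02700 (adjusted p of 5.49e-23, 4.94e-07 and 1.25e-10). That comparison reuses the FX15992 libraries whose near absence of reads singled these genes out, so it is no independent support.

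A second locus on chromosome V was silent in FX15992 and FX02700 alike. ZK228.3 (18458241 to 18461250) had 4.59 and 4.14 CPM in N2 and ZK228.4 (18462787 to 18465426) had 4.75 and 5.12 CPM, and neither had a read in the 4 libraries of the 2 strains that carry tm2700. Their 210 and 236 reads in N2 put FX15992 at least 67.8-fold and 76.2-fold lower against the same floor. HC196 had 2.22 to 3.79 CPM of the 2 genes, and both plate-grown wild-type sets had means between 3.41 and 8.87 CPM. These zeros were thus seen with or without the transgene. The call of each of these 5 genes held in every fit that gave it an adjusted p (DESeq2 gave none for T28A11.25), and with 1 N2 library left out they fell under the filter on low counts and were not tested.

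Several other genes had the same shifted level in FX15992 and FX02700. T25C12.3 on chromosome X, an abundant transcript in N2 at 183 and 165 CPM, was at 37.9 and 39.1 CPM in FX15992 and 38.1 and 39.3 CPM in FX02700, while HC196 had 135 and 189 CPM. It was 4.52-fold lower in FX15992 than in N2 (log2 -2.18, SE 0.12, adjusted p = 2.64e-15), and the difference from FX02700 was -0.00 on the log2 scale (SE 0.11). Its 2 neighbours on one side moved the other way. spp-21, which belongs to the saposin-like family of antimicrobial and lipid-binding proteins, had 0.118 and 0.0891 CPM in N2 and 1.19 and 1.42 CPM in FX15992 (log2 3.58, SE 0.53, adjusted p = 2.05e-05), with 1.17 and 0.966 CPM in FX02700. spp-9, of the same family, had 3 reads in N2 and 34 in FX15992, a ratio of 11.7 with an exact 95% interval of 3.68 to 59.6. The genes beyond this trio, lin-14 and F29G6.1, were not called.

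The chemoreceptor-family gene srw-85 showed a contrast that turned on N2 rather than on FX15992. It had 21.6 and 21.02 CPM in N2 and 0.869 and 1.38 CPM in FX15992, an 18.6-fold difference (log2 -4.22, SE 0.21, adjusted p = 1.21e-16). The 4 libraries of FX02700 and HC196 lay between 0.589 and 1.24 CPM, and the plate-grown wild types had means of 1.69 and 0.888 CPM, so that the 2 N2 libraries of this set were the only high ones. scb-1 went the other way, with 21.3 and 21.6 CPM in N2 and 66.9 and 72.0 CPM in FX15992 (log2 1.69, SE 0.12, adjusted p = 1.55e-12). FX02700 and HC196 had 52.6 to 65.3 CPM. The means of the plate-grown wild types were 8.08 and 8.68 CPM, below N2 of this set, so that every wild-type set was low. cyp-29A3, a cytochrome P450, separated the tm2700 strains from the rest, at 3.57 and 3.74 CPM in N2, 0.640 and 0.843 CPM in FX15992, 0.754 and 0.630 CPM in FX02700, and 3.44 and 4.36 CPM in HC196.

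**Figure D3:**
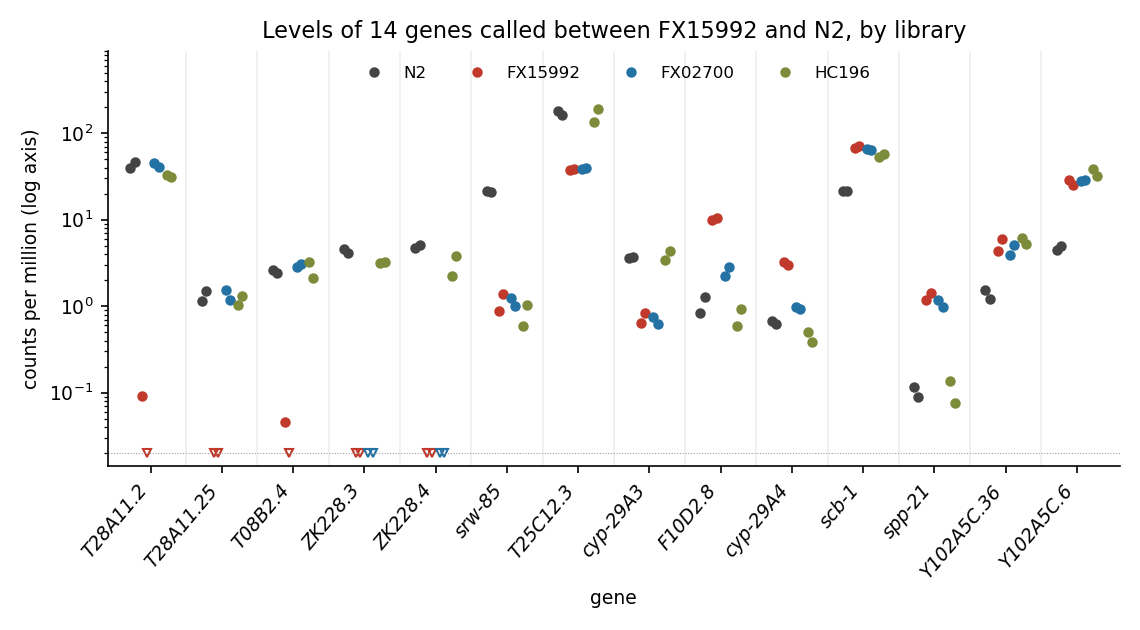
Levels in CPM on a log axis for 14 genes in each library of N2, FX15992, FX02700 and HC196, with open triangles on the dotted line for libraries with no read. T28A11.2, T28A11.25 and T08B2.4 are low only in FX15992, ZK228.3 and ZK228.4 are without reads in FX15992 and FX02700, and srw-85 is high only in N2.

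In F10D2.8, E01G4.6 and ZC317.7, FX15992 lay further from N2 than FX02700 did. A test against FX02700 is given here for F10D2.8 only. F10D2.8 (chromosome V, 7148688 to 7150714) had 0.824 and 1.29 CPM in N2, 10.02 and 10.6 CPM in FX15992 and 2.26 and 2.85 CPM in FX02700, a 9.79-fold rise over N2 (log2 3.29, SE 0.23, adjusted p = 1.55e-12) and a rise of 2.02 on the log2 scale over FX02700 (SE 0.18, adjusted p = 1e-09). Its neighbour fat-7, a fatty acid desaturase, was not called, at 22.3 and 26.7 CPM in N2 and 24.6 and 21.45 CPM in FX15992. E01G4.6 on chromosome II fell from 45.2 and 45.1 CPM in N2 to 9.24 and 11.19 CPM in FX15992 (log2 -2.14, SE 0.14, adjusted p = 1.4e-13), with FX02700 between them at 23.6 and 16.8 CPM. ZC317.7 followed the same order, at 9.42 and 10.8 CPM in N2, 3.73 and 4.53 CPM in FX02700, and 2.19 and 1.07 CPM in FX15992. C24H11.1 was 10.7-fold lower in FX15992 while its neighbour C24H11.2 was higher (log2 1.73, adjusted p = 5.17e-05), and reads may be split differently between this pair, so neither value is firm.

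On chromosome I, 6 consecutive genes between 7722084 and 7737995 were all higher in FX15992, by 0.56 to 0.85 on the log2 scale. bckd-1B, a subunit of the branched-chain keto acid dehydrogenase, had 80.5 and 74.3 CPM in N2, 142 and 137 CPM in FX15992, and 81.8 and 87.7 CPM in FX02700 (FX15992 over N2: log2 0.85, SE 0.11, adjusted p = 5.54e-06). F27D4.7 had 32.5 and 38.5 CPM in N2 and 62.8 and 60.4 CPM in FX15992 (log2 0.80, SE 0.12, adjusted p = 2.58e-05). For both, FX15992 stood above all 6 other libraries. Against FX02700, 5 of the 6 genes were also higher in FX15992, where 0.694% of all genes tested were. The exception was F27D4.3 at 0.09 (adjusted p = 0.867). That comparison reuses the FX15992 libraries in which the run was found, so it is no independent support. The genes on the flanks, lsy-22 at -0.27 and F58H10.1 at -0.39 on the log2 scale, were not called. Without N2 replicate 1 the calls of F27D4.3 (adjusted p = 0.361) and F27D4.4 (adjusted p = 0.168) were lost. F27D4.3 was also lost without N2 replicate 2 (adjusted p = 0.0627), without FX15992 replicate 2 (adjusted p = 0.169) and in DESeq2 (adjusted p = 0.18).

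**Figure D4:**
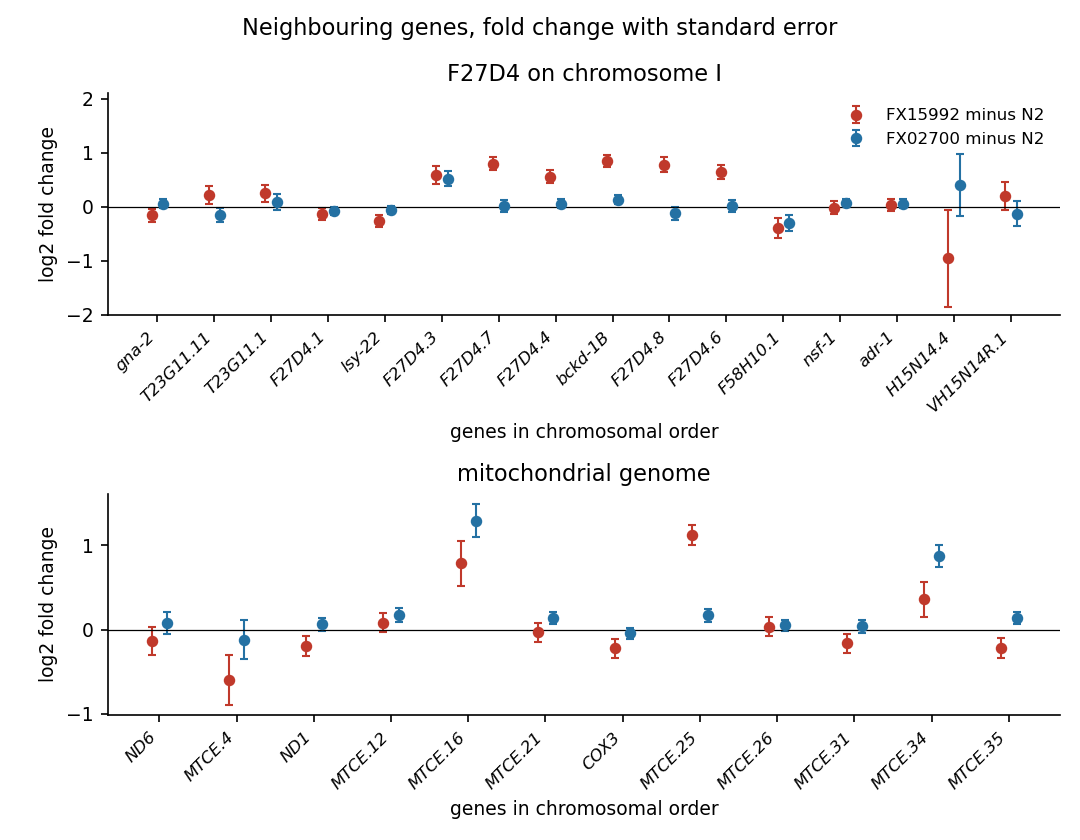
Log2 fold change over N2 with its standard error for FX15992 (red) and FX02700 (blue), for genes in chromosomal order around F27D4 on chromosome I (upper) and for the 12 genes of the mitochondrial genome (lower). F27D4.3 to F27D4.6 lie between 0.56 and 0.85 in FX15992, and MTCE.25 at 1.12 is the only mitochondrial gene called in FX15992.

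Of the 12 genes tested on the mitochondrial genome, 1 was called (8.33%, against 3.54% of all genes tested). MTCE.25 (6506 to 7808) had 346 and 379 CPM in N2, 793 and 781 CPM in FX15992, 428 and 384 CPM in FX02700, and 295 and 369 CPM in HC196. The 2 FX15992 libraries were above the other 6, with a fold change over N2 of 2.17 (log2 1.12, SE 0.12, adjusted p = 2.85e-08) and a log2 difference from FX02700 of 0.96 (SE 0.11, adjusted p = 1.14e-06). The flanking COX3, a subunit of cytochrome c oxidase, at -0.22 and MTCE.26 at 0.03 on the log2 scale were not called. In FX02700 against N2, MTCE.16 (log2 1.29, adjusted p = 0.0131) and MTCE.34 (log2 0.87, adjusted p = 0.011) were called higher, and MTCE.25 was not (log2 0.17). MTCE.16 and MTCE.34 were at 0.78 and 0.36 in FX15992, not called.

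Among gene groups, cuticle collagens held the most calls. These genes encode the extracellular coat of the worm and are switched on in waves before each moult. Of 166 collagens tested, 18 were higher and 34 lower (31.3% called, against 3.54% of all genes), with a median log2 fold change of -0.03 against -0.00 for all genes. Among those that fell, dpy-5 had 66.3 and 56.7 CPM in N2 and 24.7 and 24.4 CPM in FX15992 (log2 -1.33, SE 0.12, adjusted p = 1.52e-09). col-93, col-73 and dpy-13 fell by 1.32, 1.43 and 1.26 on the log2 scale. rol-6, which marks the hypodermis, fell by 0.96. In FX02700 against N2, 28 of the 166 collagens were called, where 1.11% of all genes tested were. FX02700 lay between the other strains in dpy-5, at 38.6 and 36.7 CPM, and FX15992 was lower than FX02700 as well (log2 -0.61, SE 0.11, adjusted p = 0.0011). Among abundant collagens that rose, col-129 had 126 and 104 CPM in N2 and 201 and 190 CPM in FX15992 (log2 0.76, SE 0.12), beside 185 and 200 CPM in FX02700. Leaving out N2 replicate 1 left 12 higher and 22 lower, and leaving out N2 replicate 2 left 7 higher and 39 lower.

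Of 15 muscle markers 6 were called, all lower (40%, against 3.54% of all genes tested). In bulk RNA, fewer cells of a type and less RNA per cell cannot be told apart. The pharyngeal myosin heavy chain myo-2 had 144 and 109 CPM in N2, 52.3 and 48.8 CPM in FX15992, and 106 and 179 CPM in FX02700 (FX15992 over N2: log2 -1.33, SE 0.13, adjusted p = 3.43e-09). myo-1, also a pharyngeal myosin, had 160 and 104 CPM in N2 and 52.3 and 53.1 CPM in FX15992 (log2 -1.33, SE 0.14, adjusted p = 3.26e-08). Both FX15992 libraries were below all other libraries of the set in each of these genes, and against FX02700 the log2 differences were -1.49 and -1.34. The body wall genes unc-22 (twitchin), unc-89 (obscurin) and myo-3, with the troponin gene tnt-3, were lower by 0.84, 0.59, 0.55 and 0.42 on the log2 scale. Others did not pass the test: unc-54, the main body wall myosin, had 941 and 908 CPM in N2 and 903 and 773 CPM in FX15992 (log2 -0.14, adjusted p = 0.635), and act-4, an actin, had 1360 and 1199 CPM in N2 and 1490 and 1320 CPM in FX15992. No marker of this list was at 0, and the summed level of all 15 ran from 8082 to 8546 CPM in N2 and from 7215 to 7717 CPM in FX15992. Without N2 replicate 1, 3 members were lower, and unc-89 was among those lost (adjusted p = 0.248).

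The list of stress chaperones held 67 tested members, 62 of them abu and pqn genes, which encode glutamine- and asparagine-rich proteins, several of them linked to the pharyngeal cuticle. None was higher and 15 were lower (22.4%, against 3.54% of all genes tested), all of them abu or pqn genes. The median of the list was -0.27. pqn-75 had 10 and 8.33 CPM in N2 and 3.70 and 4.14 CPM in FX15992 (log2 -1.23, SE 0.19, adjusted p = 3.74e-05), with 5.43 and 8.90 CPM in FX02700. abu-8 had 12.2 and 6.59 CPM in N2 and 4.16 and 3.68 CPM in FX15992 (log2 -1.27, SE 0.22, adjusted p = 0.000207). The N2 libraries were far apart in abu-8, and without N2 replicate 1 its adjusted p was 0.0933 and the count of the list fell from 15 to 2. DESeq2 called 7 members of this list.

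Of 100 neuropeptide genes tested, which encode secreted signalling peptides, 11 were lower and 2 higher (13%, against 3.54% of all genes tested). Their median log2 fold change was -0.24. In FX02700 against N2, 12 of them were called in either direction, where 1.11% of all genes tested were. Their median there was -0.28, so a lower median was not particular to FX15992. Their summed levels were 3655 and 3633 CPM in N2 and 2883 and 3421 CPM in FX15992. FX02700 had 2975 and 3081 CPM and HC196 had 2440 and 3076 CPM. nlp-3 had 34.6 and 32.9 CPM in N2 and 16.1 and 22.3 CPM in FX15992 (log2 -0.81, SE 0.14, adjusted p = 0.000225), and nlp-39 had 45.2 and 57.0 CPM against 29.3 and 28.8 CPM (log2 -0.82, SE 0.12, adjusted p = 3.56e-05). In nlp-39 FX02700 was as low, at 24.2 and 23.4 CPM. Beside these, 2 of 15 neuron markers fell, the neuropeptide-processing enzymes egl-3 (log2 -0.70) and egl-21 (log2 -0.49), with adjusted p of 0.0576 and 0.392 without N2 replicate 1. The other 13, among them the synaptic genes rab-3 at -0.01, snb-1 at -0.11 and unc-64 at 0.09 on the log2 scale, were not called. The summed level of the 15 markers was 1145 to 1262 CPM in N2 and 934 to 955 CPM in FX15992, none was at 0, and the part of neuron content in the neuropeptide values was not tested. Without FX15992 replicate 1, 4 neuropeptide genes were lower and 4 higher, so that neither direction led, and without FX15992 replicate 2, 32 were lower and none higher. Without N2 replicate 1, 6 were lower and none higher.

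Detoxification genes went both ways, with 12 higher and 13 lower of 222 tested. The share called over all genes tested was 3.54%, with 1.26% higher and 2.28% lower. Within the cytochrome P450 family, which oxidises lipids and foreign compounds, cyp-35B2 had 0 and 0.178 CPM in N2 and 1.83 and 1.11 CPM in FX15992 (adjusted p = 2.47e-05). Its N2 level rested on 4 reads, all in replicate 2, against 40 and 29 reads in FX15992. The fitted log2 fold change of 4.03 (SE 0.60) was therefore poorly fixed, at 2.99 without N2 replicate 1 and 8.15 without N2 replicate 2. cyp-29A4 rose from 0.667 and 0.624 CPM to 3.25 and 2.99 CPM, and cyp-33A1 from 10.04 and 10.8 CPM to 20.2 and 21.9 CPM. FX02700 was close to N2 in all of them, at most 12.7 CPM in cyp-33A1, and FX15992 was higher than FX02700 in each (adjusted p of 4.89e-05, 4.48e-05 and 0.000246). Among genes that fell, the glutathione S-transferase gst-44 had 24.5 and 23.03 CPM in N2 and 9.79 and 12.6 CPM in FX15992 (log2 -1.08, SE 0.15). Without N2 replicate 1 the list held 8 higher and 6 lower members.

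Of 47 antimicrobial and immune peptides tested, 7 were higher and 1 lower (17%, against 3.54% of all genes tested), with a median of 0.31. In FX02700 against N2, 6 of them were called in either direction, where 1.11% of all genes tested were, with a median of 0.22. irg-6, an infection response gene, had 0.549 and 0.935 CPM in N2 and 2.42 and 3.33 CPM in FX15992 (log2 1.97, SE 0.31, adjusted p = 6.41e-05). irg-3 was the lower one, at 84.3 and 92.0 CPM in N2 and 63.1 and 58.9 CPM in FX15992 (log2 -0.53, SE 0.11, adjusted p = 0.00357, and 0.11 without N2 replicate 2). The count of higher members was 2 without N2 replicate 1 and 14 without FX15992 replicate 1. Of 154 C-type lectins, sugar-binding proteins of which many respond to infection, 6 were higher and 5 lower (7.14%). clec-52 had 85.8 and 77.0 CPM in N2, 134 and 158 CPM in FX15992, but 53.1 and 59.0 CPM in FX02700, so that the 2 strains with tm2700 lay on opposite sides of N2 (log2 0.84, SE 0.12, and log2 -0.54, adjusted p = 1.27e-05 and 0.0178). The lysozyme ilys-3 fell from 38.5 and 33.3 CPM to 16.6 and 19.5 CPM (log2 -0.99, SE 0.13, adjusted p = 4.48e-06).

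Fatty acid metabolism had 5 lower and no higher of 75 members tested (6.67%, against 3.54% of all genes tested). acs-7, an acyl-CoA synthetase of peroxisomes, had 136 and 140 CPM in N2, 74.4 and 82.1 CPM in FX15992 and 135 in both FX02700 libraries (FX15992 over N2: log2 -0.82, SE 0.12, adjusted p = 9.41e-06). cpt-5, a carnitine palmitoyltransferase, had 21.2 and 21.3 CPM in N2, 12.6 and 14.2 CPM in FX15992, and 23.9 and 25.7 CPM in FX02700. In both, FX02700 was near or above N2 and FX15992 was lower than FX02700 (adjusted p = 3.45e-05 and 4.02e-05). The lysosomal lipase lipl-3 was low in both strains, at 50.8 and 55.2 CPM in FX15992 and 55.1 and 61.8 CPM in FX02700, against 91.6 and 86.8 CPM in N2. With either N2 replicate left out, 3 members were called lower, and without N2 replicate 1 there was also 1 higher.

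**Figure D5:**
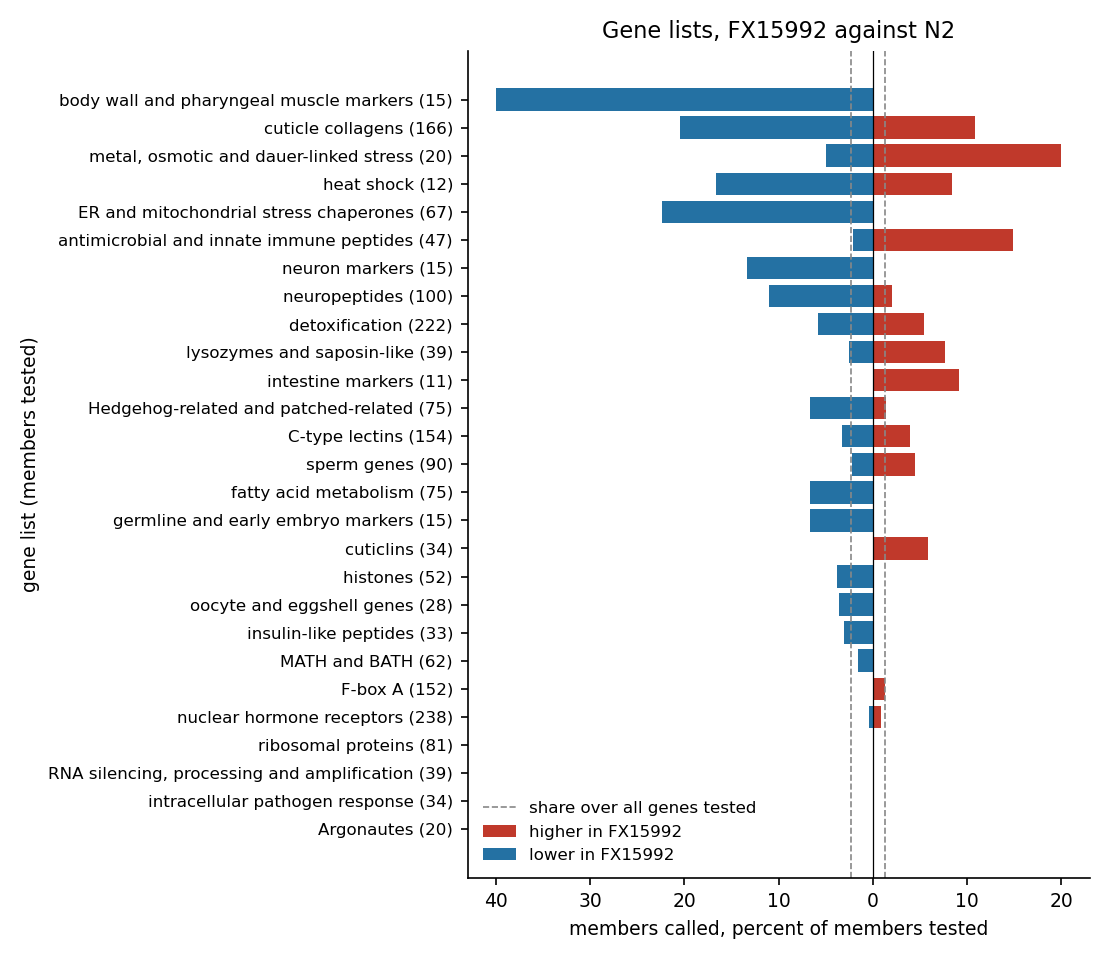
Percent of members called, for each gene list with at least 10 tested members, plotted as higher (red, to the right) and lower (blue, to the left) in FX15992 against N2, with dashed lines at the share over all genes tested, 1.26% higher and 2.28% lower. Muscle markers (40% lower) and cuticle collagens (31.3% called) stand out, and Argonautes, RNA silencing genes, ribosomal proteins and the intracellular pathogen response have none.

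Over all genes tested, 9328 of 18297 had a negative log2 fold change and 3.54% were called. Of 28 oocyte and eggshell genes, 27 had a negative log2 fold change and 1 was called (3.57%), the eggshell chondroitin proteoglycan cpg-1 (log2 -0.51, adjusted p = 0.0264). Its adjusted p was 0.302 without FX15992 replicate 2 and 0.299 without N2 replicate 2, and DESeq2 did not call it (adjusted p = 0.607). The summed level of the 28 was 11127 and 11644 CPM in N2 and 10626 and 8002 CPM in FX15992, so that only the second FX15992 library was far from N2. Without FX15992 replicate 1, 19 of the 28 were called lower. Of 90 sperm genes 4 were higher and 2 lower (6.67%). Their summed levels, 1126 and 781 CPM in N2 and 1048 and 992 CPM in FX15992, overlapped. The number of sperm genes called higher was 12 without N2 replicate 1 and 0 without N2 replicate 2 or without FX15992 replicate 2. Of 6 vitellogenins 2 were called in edgeR (33.3%), the yolk protein genes vit-3 (log2 1.21) and vit-4 (log2 1.12). DESeq2 called neither (adjusted p = 0.295 and 0.705). vit-4 also lost its call without N2 replicate 1 (adjusted p = 0.124). Ribosomal protein genes were not called, 0 of 81 in edgeR, DESeq2 and limma voom, with 3 at an unadjusted p under 0.05, but without FX15992 replicate 1 edgeR called 5 higher and 1 lower.

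The remaining lists are given with their share called, beside 3.54% of all genes tested. In the germline and early embryo list 1 of 15 was lower (6.67%), and its summed level was 2881 and 3054 CPM in N2 and 2839 and 2210 CPM in FX15992, again with the second FX15992 library lowest. Without FX15992 replicate 1, 9 of the 15 were lower, and none was without FX15992 replicate 2 or without either N2 replicate. Of 11 intestine markers 1 was higher (9.09%), which was not called without N2 replicate 1 or 2, and of 8 hypodermis and seam markers 1 was lower (12.5%). Lysozymes and saposin-like genes had 3 higher and 1 lower of 39 (10.3%). Cuticlins had 2 higher of 34 (5.88%), and 1 without N2 replicate 1, N2 replicate 2 or FX15992 replicate 1. Among Hedgehog-related and patched-related genes, 1 was higher and 5 were lower of 75 (8%), and none was called without N2 replicate 1. Histones had 2 lower of 52 (3.85%), and none in DESeq2 or without N2 replicate 1. Insulin-like peptides had 1 lower of 33 (3.03%), and none in DESeq2, without N2 replicate 2 or without FX15992 replicate 1. The shares were lower than over all genes for F-box A genes, with 2 higher of 152 (1.32%), MATH and BATH genes, with 1 lower of 62 (1.61%), and nuclear hormone receptors, with 2 higher and 1 lower of 238 (1.26%). Of 34 genes of the intracellular pathogen response, none was called in edgeR, DESeq2 or limma voom, and 3 had an unadjusted p under 0.05.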

How the data were processed

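PolyA+ RNA of mixed-stage animals was sequenced by the authors, trimmed with cutadapt and quantified per transcript with Salmon (versions not given in the sources used here; build ce11 in the submitters' notes). The deposited files hold estimated counts and TPM, normalized by the authors for transcript length and library, for 35749 transcripts. Transcripts were matched to Ensembl release 115 of WBcel235, 31176 by identifier and 4485 by sequence name, leaving 88 unmatched, and estimated counts were summed over 21982 genes and rounded. Salmon was run with automatic detection of library type, and what it detected is not given in the sources used here, so reads of overlapping antisense genes and of near-identical copies may be shared.

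FX15992 was compared with N2 in edgeR 4.0.16 (R 4.3.3) with a quasi-likelihood test after TMM scaling, on genes above 0.1 CPM in at least 2 libraries of the fit, with Benjamini-Hochberg adjustment over all genes tested and a threshold of 0.05. FX02700 against N2 and FX15992 against FX02700 were fitted likewise. Alternatives were limma voom (limma 3.58.1), the tool of the study, DESeq2 1.42.0, upper-quartile scaling, other filters, length-scaled counts, a fit over all 8 libraries and fits leaving out each library. Adjusted p-values outside processing alternatives come from edgeR. In simulated data for 18038 genes, 89% of genes changed by 1 on the log2 scale and 100% of those changed by 2 were recovered. Of the calls made there, 2.1% were false. The changed genes had a mean above 1 CPM, and the simulated spread followed the trend over all genes. These rates therefore do not cover sparse genes or single deviating libraries. Chi-square per degree of freedom between replicates was 5.72 to 11.9, above sampling noise for every pair. The study calls its replicates biological duplicates.

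The members and the 32 gene lists were chosen with earlier results of these data known. Genes were named by a rule: the transgene and sid-1-dependent genes, the 12 widest non-overlapping changes and the 5 lowest p-values in each direction, up to 4 genes per list, genes without reads in 1 strain, and called runs of at least 3 neighbours. The 12 widest needed a mean of at least 1 CPM in the higher strain. Other genes named were chosen after their values were seen. Intervals and floors (3 reads) cover counting error only, with no molecular identifiers. Sequences were not printed.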

Additional observations from a re-analysis of the deposited data

How the results depend on the processing

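Of 111 named genes called in FX15992 against N2, none changed direction under any alternative, 85 kept their call in every alternative that used all libraries, and 65 kept it in every fit with 1 library left out that tested them. Leaving out N2 replicate 1 ended 34 of these calls and DESeq2 ended 21. The count of 648 genes (230 higher, 418 lower) was 399 in DESeq2 (127 and 272) and 195 (80 and 115) where a change of 1 or more on the log2 scale was also required, and ran from 315 to 1183 with 1 library left out (143 to 383 higher, 172 to 800 lower). For FX02700 against N2, the count of 204 was 403 with no filter on low counts (162 and 241), the lower genes were 72 with upper-quartile scaling, and fits with 1 library left out gave 266 to 706 (128 to 301 higher, 138 to 405 lower). For FX15992 against FX02700, the count of 379 was 234 in DESeq2 (63 higher), 611 with no filter (203 and 408), 191 with all 8 libraries in 1 fit (63 and 128), and 110 to 1532 with 1 library left out (41 to 562 higher, 69 to 970 lower). The causes were not tested. A change of direction was counted only where the fit over all libraries or the alternative called the gene, so other uncalled genes may change sign. In the comparisons with FX02700 this held for 2 named genes, both with 1 library left out. There myo-1 in FX02700 against N2 (0.02 in all libraries) ranged from -0.43 to 0.36, and vit-3 in FX15992 against FX02700 (0.08) from -0.44 to 0.46.

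Replicate numbers did not pair the libraries: the correlation of same-numbered deviations was -0.044. With the replicate block, 741 genes were called in FX15992 against N2 (247 higher, 494 lower), 632 of them shared with the 648, 170 in FX02700 against N2 and 293 in FX15992 against FX02700. With 2 libraries per strain the spread of a single gene is poorly known, and some calls were made where the N2 libraries lay far apart: vit-4 was 0.53 without N2 replicate 1 and 2.06 without N2 replicate 2.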

Other observations

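A group of genes that were nearly silent in N2 rose slightly in FX15992 and had far higher levels in HC196. The cuticlin cut-1 and the collagen col-2, both known from the cuticle of the dauer larva, the long-lived stage formed under crowding and starvation, were the best known of them. cut-1 had 3 reads in N2 and 35 in FX15992, a ratio of 12.05 with an exact 95% interval of 3.80 to 61.2, and 0.732 and 0.728 CPM in FX15992 against 8.38 and 13.1 CPM in HC196. col-2 had 0.235 and 0.134 CPM in N2, 1.24 and 0.843 CPM in FX15992 (log2 2.42, SE 0.50, adjusted p = 0.00259), 0.452 and 0.042 CPM in FX02700, and 11.01 and 13.6 CPM in HC196. col-40, col-84, col-102 and the Hedgehog-related gene grl-25 were likewise lowest in N2 or FX02700 and highest in HC196, with 0.457 to 1.30 CPM in FX15992 and 7.204 to 15.3 CPM in HC196. These genes were set side by side after their values were seen, and col-40 and grl-25 lost their calls without N2 replicate 1 (adjusted p = 0.227 and 0.292).

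Of the metal, osmotic and dauer-linked stress list, 4 of 20 tested were higher and 1 was lower (25%, against 3.54% of all genes tested). gpdh-1, which makes the osmolyte glycerol, had 1.77 and 1.65 CPM in N2, 4.12 and 3.56 CPM in FX15992, and 4.60 and 4.24 CPM in FX02700 (FX15992 over N2: log2 1.16, SE 0.24, adjusted p = 0.00274). The metallothioneins mtl-1 and mtl-2 were higher by 0.69 and 0.41, with adjusted p of 0.248 and 0.569 without N2 replicate 1, and mtl-2 also lost its call without N2 replicate 2 (adjusted p = 0.108). The list held 1 higher member without N2 replicate 1. dod-6 had 136 and 135 CPM in N2 and 79.7 and 78.8 CPM in FX15992 (log2 -0.78, SE 0.11, adjusted p = 1.92e-05). Of 12 heat shock genes 3 were called (25%). Of these, hsp-12.2 and hsp-16.48 were lower and hsp-16.41 was higher, at 0.667 and 1.07 CPM in N2 and 2.01 and 1.88 CPM in FX15992. Their adjusted p rose to 0.302 for hsp-12.2 and 0.356 for hsp-16.41 without N2 replicate 1, and to 0.315 for hsp-16.48 without N2 replicate 2. That of hsp-16.41 was also 0.0593 and 0.0641 without FX15992 replicates 1 and 2.

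Small runs of neighbours also moved together. nspe-5 on chromosome II had 1.65 and 1.92 CPM in N2, 6.45 and 8.08 CPM in FX15992, and 4.52 and 4.83 CPM in FX02700 (FX15992 over N2: log2 2.03, SE 0.22, adjusted p = 7.23e-08), beside nspe-7 at 1.23 and Y38E10A.28 at 0.99, both lost without N2 replicate 1 (adjusted p = 0.168 and 0.231) and without FX15992 replicate 2 (0.174 and 0.232). Y38E10A.28 was also lost without N2 replicate 2 (adjusted p = 0.0621). On chromosome V, exh-1, C36C5.12 and C36C5.14 were higher by 0.97, 1.56 and 2.78, beside 1.12, 1.46 and 3.10 in FX02700 against N2. exh-1 lost its call without N2 replicate 1 (adjusted p = 0.0697) and without FX15992 replicate 2 (0.12), and C36C5.14 without N2 replicate 2 (0.0938). On chromosome IV, Y4C6B.2, Y4C6B.3 and Y4C6B.4 fell by 0.76, 0.79 and 0.85 on the log2 scale. Y4C6B.3 and Y4C6B.4 lost their calls without N2 replicate 1 (adjusted p = 0.247 and 0.331), and Y4C6B.2 without FX15992 replicate 1 (0.0543).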
